A study of Bos taurus with 14 samples.

Results

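The miR-17, miR-18, miR-19 and miR-106 family was followed across 14 small RNA libraries of bovine plasma and leucocytes. Its 10 members were bta-miR-17-5p, bta-miR-18a, bta-miR-18b, bta-miR-19a, bta-miR-19b, bta-miR-20a, bta-miR-20b, bta-miR-93, bta-miR-106a and bta-miR-106b, chosen by name and not by their values from 932 bovine and human miRNA names in the libraries. The libraries came from 4 rumen-cannulated, non-lactating Holstein cows that ate only forage (FD, 0% concentrate) and then spent a first week on high grain (HG, 65% concentrate). Plasma was sequenced for each cow on each diet, which gave 4 libraries per diet. Leucocytes, taken as the buffy coat of the same jugular blood, were sequenced for cows 1, 3 and 4, which gave 3 libraries per diet. Because every cow ate FD first and HG second, diet and time cannot be told apart, and no group received another treatment.

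MicroRNAs of this family are cut from 3 polycistronic transcripts, the miR-17-92a, miR-106a-363 and miR-106b-25 clusters, and are known for roles in cell proliferation and in the development of blood cells. A miRNA recognises its targets mainly through its seed, a short stretch near its 5′ end. The miR-17 seed is shared by miR-17-5p, miR-20a, miR-20b, miR-93, miR-106a and miR-106b. The miR-18 seed belongs to miR-18a and miR-18b, and the miR-19 seed to miR-19a and miR-19b. The clusters also encode miR-92a, miR-363 and miR-25, which carry another seed and served as cluster mates.

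The coordinates in the libraries (UMD3.1) placed the members in 3 short stretches of the genome. On the plus strand of chromosome 12, bta-miR-17-5p, bta-miR-18a, bta-miR-19a, bta-miR-20a, bta-miR-19b and bta-miR-92a followed each other within 757 nt, from 66226567 to 66227323. On the minus strand of chromosome X, bta-miR-106a, bta-miR-18b, bta-miR-20b, a second copy of bta-miR-19b and bta-miR-363 lay within 809 nt, from 17917752 to 17918560. On the plus strand of chromosome 25, bta-miR-106b, bta-miR-93 and bta-miR-25 lay within 465 nt, from 36892057 to 36892521. In the RefSeq annotation of assembly ARS-UCD2.0 the genes MIR106B, MIR93 and MIR25 lie inside MCM7, which encodes a subunit of the replicative helicase. Reads of bta-miR-19b could not be split between its copies and were counted with the miR-17-92a cluster.

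Reads assigned to miRNAs numbered 376589 to 4464702 per plasma library and 21764579 to 66070770 per leucocyte library. A count of 0 therefore allowed up to 0.672 to 7.97 reads per 1000000 assigned reads (RPM) in plasma and 0.0454 to 0.138 RPM in leucocytes, for counting error only. All 10 members had reads in both materials, and all but bta-miR-18b had reads in every library. The 6 leucocyte marker miRNAs had reads in both materials and summed to 19499 to 28822 RPM in leucocytes and 12734 to 24754 RPM in plasma. Mean RPM of bta-miR-223 was higher in plasma than in leucocytes, at 5851 against 5120 on FD and 8860 against 5757 on HG. That of bta-miR-155 was also higher in plasma, at 269 against 239 on FD and 279 against 197 on HG. In these comparisons the libraries of the materials overlapped, except for bta-miR-223 on HG. The remaining leucocyte markers had higher means in leucocytes on both diets. The 3 erythrocyte markers (bta-miR-451, bta-miR-144 and bta-miR-486) summed to 154131 to 298915 RPM in leucocytes and 28701 to 93440 RPM in plasma. These sums divide reads that fit several names, and bta-miR-451 kept 0.513 to 0.998 of its reads between leucocyte libraries, which widens their range. Plasma and leucocyte RNA were extracted with different kits, so tissue and kit cannot be told apart. In such bulk material, fewer cells of a type and less RNA per cell cannot be told apart.

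The family was dominated by the 2 members of the miR-106b-25 cluster. Levels are given as RPM of estimated counts, relative to all reads assigned to miRNAs, where a read that fits several names is divided among them. bta-miR-93 had a median of 1786 RPM in plasma and 6114 RPM in leucocytes, and bta-miR-106b had 1207 and 6166 RPM. The next members, bta-miR-17-5p, bta-miR-20a, bta-miR-19b, bta-miR-18a and bta-miR-19a of the miR-17-92a cluster, had medians of 71.4 to 286 RPM in plasma and 192 to 653 RPM in leucocytes. The 3 members from chromosome X were scarce, with medians of 0.519 RPM (bta-miR-18b), 1.84 RPM (bta-miR-20b) and 2.59 RPM (bta-miR-106a) in plasma, and 4.95, 8.38 and 11.8 RPM in leucocytes. The miR-106b-25 members thus made up 77.2 to 85.2% of the family in plasma on FD and 81.0 to 84.8% on HG, and 84.1 to 86.9% in leucocytes on FD and 85.2 to 86.9% on HG. In undivided reads these shares were 71.1 to 79.1% and 75.0 to 78.5% in plasma, and 76.2 to 81.5% and 78.1 to 81.5% in leucocytes. Among bovine names ranked by undivided reads, bta-miR-93 was number 42 of 463 in plasma and number 18 of 714 in leucocytes.

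**Figure D1:**
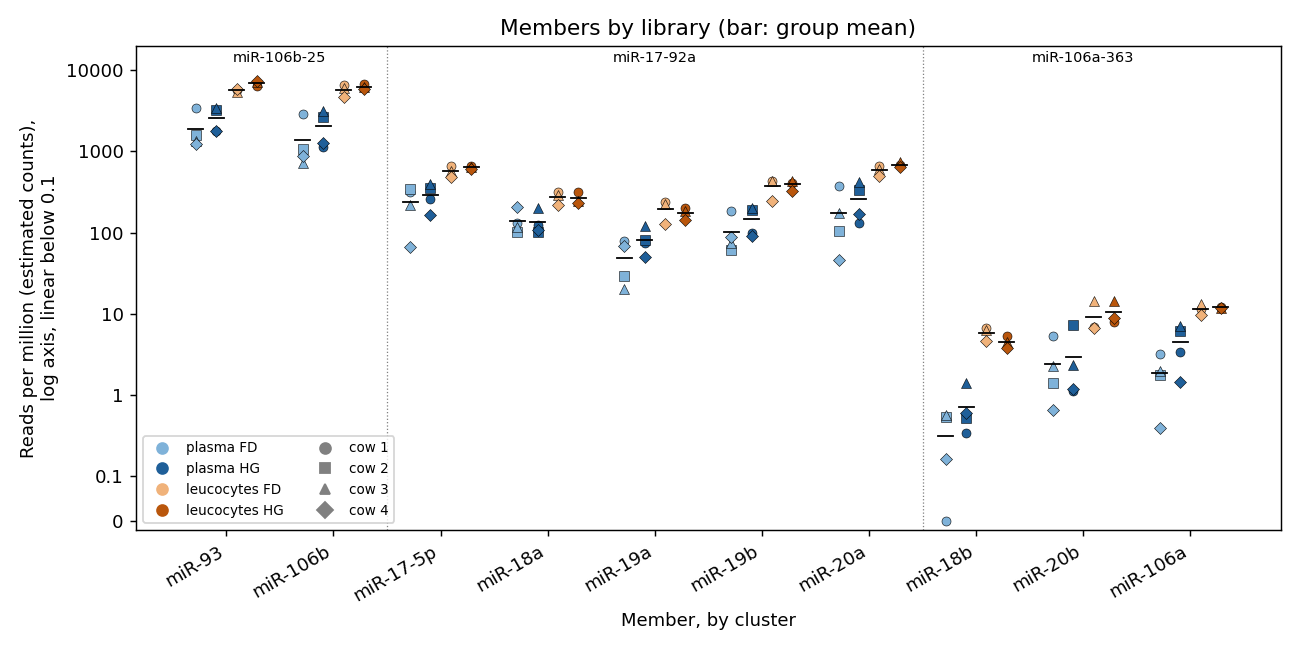
RPM of each member (estimated counts, vertical axis, log scale that is linear below 0.1) in every library, with members grouped by cluster on the horizontal axis. Colours give tissue and diet, marker shapes give the cow, and short bars the group means. The leucocyte points of each member lie above the plasma points of the same diet, and the 3 members of the miR-106a-363 cluster lie far below the others.

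How reads were shared between names changed the order of the members. Nearly every read of bta-miR-106b was counted once, whereas bta-miR-93 kept 0.5 of its reads, with the rest going to the human name, and bta-miR-19b kept about 0.25. In estimated counts bta-miR-93 exceeded bta-miR-106b in 8 of 8 plasma libraries and in 3 of 6 leucocyte libraries. In undivided reads it was the higher one in all 14 libraries, by 2.19 to 3.65 times in plasma and 1.74 to 2.51 times in leucocytes. In plasma the order from bta-miR-17-5p to bta-miR-19a was not separated by the spread, since bta-miR-20a alone ranged from 46.4 to 415 RPM and bta-miR-17-5p from 66.4 to 398 RPM. For the abundant members the share kept hardly varied between libraries, but in plasma it ran from 0.625 to 1.0 for bta-miR-20b and from 0.191 to 0.253 for bta-miR-106a, so the division also touches comparisons of these between libraries. How efficiently each sequence was cloned was not measured, so levels of different members are approximate.

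Leucocytes held more of every member than plasma. The family took 1.47, 1.36 and 1.21% of the reads in leucocytes of cows 1, 3 and 4 on FD, and 1.55, 1.58 and 1.52% on HG. In plasma it took 0.740, 0.332, 0.267 and 0.258% in cows 1 to 4 on FD, and 0.363, 0.705, 0.800 and 0.363% on HG. No leucocyte library overlapped with a plasma library in this share. Over cows 1, 3 and 4 the difference was 0.926 ± 0.186 percentage points on FD and 1.04 ± 0.228 on HG (SD, n = 3 cows). Counting error was small beside this spread, since even the smallest library (plasma of cow 1 on FD) had a 95% Wilson interval of 0.713 to 0.767%.

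**Figure D2:**
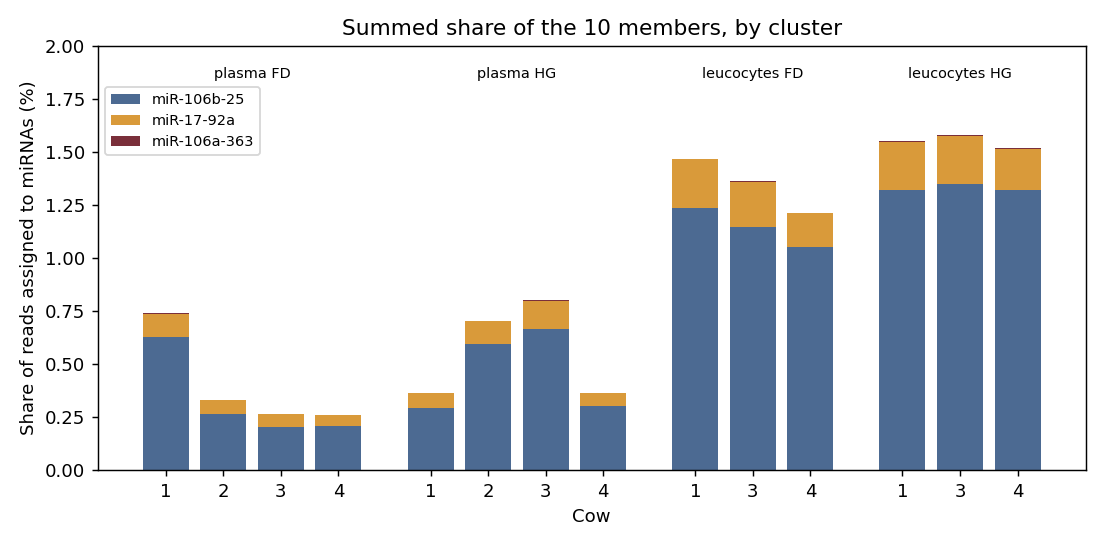
Share of the reads assigned to miRNAs that the 10 members took together (vertical axis, percent, estimated counts) in each library, named by cow on the horizontal axis. Colours split each bar by cluster. Every leucocyte bar stands above 1.2% and every plasma bar at or below 0.800%, with 3 tall bars among the plasma libraries (cow 1 on FD, cows 2 and 3 on HG).

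The tissue difference was seen in each member. bta-miR-93 stood at 5749, 5377 and 5832 RPM in leucocytes of cows 1, 3 and 4 on FD and at 3403, 1597, 1331 and 1221 RPM in plasma of cows 1 to 4. On HG it stood at 6395, 7259 and 7349 RPM in leucocytes and at 1794, 3285, 3477 and 1779 RPM in plasma. The groups did not overlap on either diet, and plasma of cow 1 on FD and of cows 2 and 3 on HG came closest to leucocytes. bta-miR-106b, its neighbour on chromosome 25, had 6600, 6085 and 4700 RPM in leucocytes and 2900, 1075, 730 and 884 RPM in plasma on FD. On HG it had 6826, 6246 and 5850 RPM in leucocytes and 1148, 2688, 3176 and 1265 RPM in plasma. The same plasma libraries were the high ones.

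Within the miR-17-92a cluster, bta-miR-17-5p had 659, 573 and 483 RPM in leucocytes and 315, 344, 221 and 66.4 RPM in plasma on FD. bta-miR-20a, which shares its seed, had 660, 612 and 498 RPM in leucocytes and 373, 105, 175 and 46.4 RPM in plasma on FD. Both were lowest in plasma of cow 4. The 2 miR-19 members also lay apart on FD, with bta-miR-19a at 236, 226 and 128 RPM in leucocytes against 79.7, 29.1, 19.9 and 68.3 RPM in plasma. bta-miR-19b had 436, 437 and 242 RPM in leucocytes and 187, 60.6, 73.9 and 88.5 RPM in plasma. Cow 4 had the lowest leucocyte level of both on both diets. bta-miR-18a came closest to an overlap, with a lowest leucocyte value of 221 RPM on FD against a highest plasma value of 208 RPM.

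Among the scarce members, bta-miR-18b had 6.65, 6.27 and 4.58 RPM in leucocytes on FD, while in plasma it was counted with 0, 3, 4 and 2 undivided reads on FD and 6, 2, 6 and 8 on HG. bta-miR-106a had 11.3, 13.1 and 9.61 RPM in leucocytes and 3.19, 1.77, 1.98 and 0.388 RPM in plasma on FD. bta-miR-20b rested on 2 to 7 reads in each plasma library. Its leucocyte levels were 14.2 and 14.3 RPM in cow 3 and 6.60 to 8.95 RPM in cows 1 and 4, so cow 3 stood above the others on both diets.

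Without overlap between leucocytes and plasma, 10 of 10 members were higher in leucocytes on FD and 10 of 10 on HG, where 31.7% and 23.7% of all names with reads were. The ratio of mean RPM ran from 1.98 (bta-miR-18a) to 18.6 (bta-miR-18b) on FD and from 1.98 (bta-miR-18a) to 6.34 (bta-miR-18b) on HG. By edgeR's quasi-likelihood test with TMM scaling and cow as a block, 10 of 10 members were higher on FD, beside 28.0% of the 794 names tested, and 10 of 10 on HG, beside 22.5%. Their median log2 fold change was 3.14 on FD and 3.09 on HG, beside 2.29 and 1.31 over all names tested. On FD the log2 fold changes ran from 2.06 for bta-miR-18a (SE 0.570, adjusted p = 0.0187) to 5.97 for bta-miR-18b (SE 1.26, adjusted p = 0.0052). The latter rests on few plasma reads and was 4.50 without cow 4, where it was not called, and 9.77 without cow 3. bta-miR-93 had 2.93 (SE 0.333, adjusted p = 0.000153) and bta-miR-106b 3.43 (SE 0.442, adjusted p = 0.000326). On HG they ran from 2.36 for bta-miR-18a (SE 0.557) to 4.28 for bta-miR-20b (SE 0.895).

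The size of these changes depended on the scaling. TMM set the factors of plasma and leucocyte libraries apart, and with library size alone the median log2 fold change of all names was 1.06 in place of 2.29 on FD and −0.26 in place of 1.31 on HG. On that scale all 10 members were still higher in leucocytes, with a median of 1.60 on FD and 1.43 on HG. The test then called 4 members on FD (bta-miR-93, bta-miR-106b, bta-miR-17-5p and bta-miR-18b), beside 6.55% of names, and 3 on HG (bta-miR-93, bta-miR-106b and bta-miR-19b), beside 8.06%. The split over all names moved from 222 higher and 80 lower to 52 and 126 on FD, and from 179 and 100 to 64 and 191 on HG. With 1 cow left out, 5 to 7 members were called on FD and 6 or 7 on HG, all of them higher. Beside them, 43 to 105 names were called higher on FD and 78 to 117 on HG, of 746 to 762 tested. Without the 2 plasma libraries under 1100000 reads, a setting chosen after seeing the data, 10 of 10 members were called on each diet. Beside them, 200 of 791 names were called higher on FD and 192 on HG. The summed erythrocyte markers were also higher in leucocytes. Libraries of the tissues did not overlap for bta-miR-451 and bta-miR-144, but did for bta-miR-486 on both diets. Mean RPM of bta-miR-486 was 22381 in leucocytes and 24566 in plasma on FD, and 29687 and 17833 on HG. Its log2 fold change by edgeR with TMM was 1.23 on FD (adjusted p = 0.0453) and 2.47 on HG (adjusted p = 0.00279). The share of the family was also taken with all bovine and human names of miR-451, miR-144 and miR-486, of either arm, left out of the total. It then differed between the tissues by 1.65 ± 0.245 percentage points on FD and 1.90 ± 0.410 on HG.

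**Figure D3:**
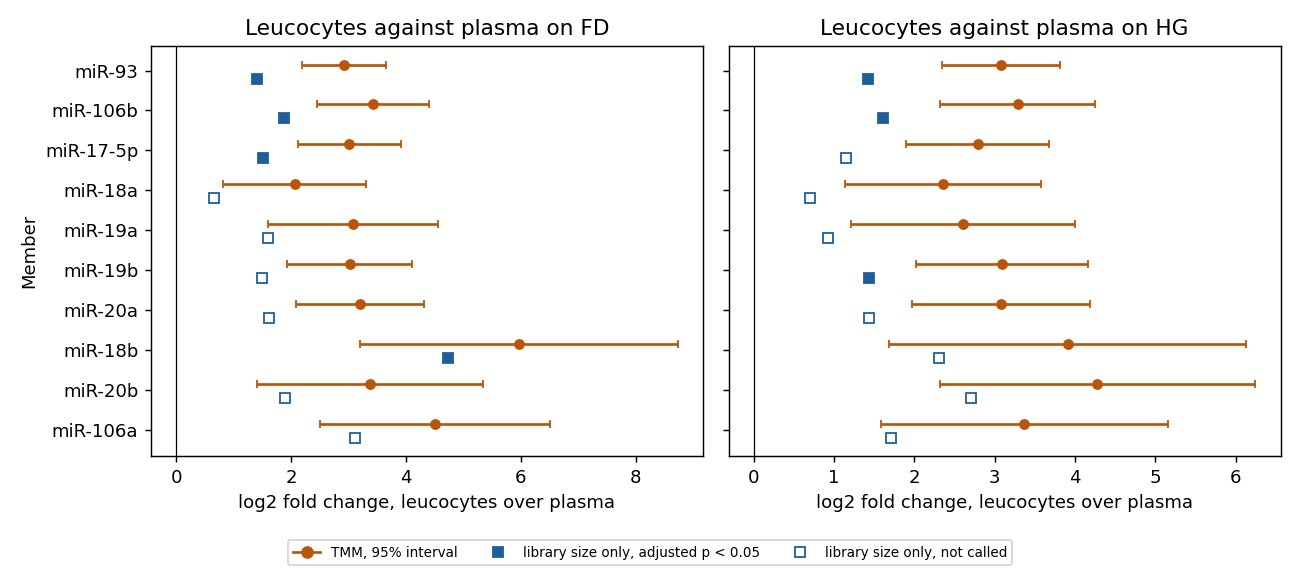
Log2 fold change of each member between leucocytes and plasma (horizontal axis) on FD (left) and HG (right), members on the vertical axis. Circles are the edgeR estimates with TMM scaling and their 95% intervals; squares are the estimates with library size only, filled where the adjusted p was under 0.05. All points lie to the right of 0 on both scales, with the squares closer to it.

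The cluster mates were compared in the same way. bta-miR-25, which shares a transcript with bta-miR-93 and bta-miR-106b, was higher in leucocytes by 2.72 (SE 0.312, adjusted p = 0.000153) on the log2 scale on FD and by 3.02 on HG (SE 0.316, adjusted p = 0.000132). bta-miR-92a, the most abundant name placed in the miR-17-92a cluster, had 6245 to 9148 RPM in leucocytes and 3836 to 11372 RPM in plasma, so these libraries overlapped. In plasma bta-miR-92a kept 0.252 to 0.262 of its reads, a share close to that of bta-miR-19b with its second copy. Whether all reads of bta-miR-92a came from this cluster was not tested. Its log2 fold change with TMM was 1.20 on FD (SE 0.381, adjusted p = 0.0325) and 1.73 on HG (SE 0.384, adjusted p = 0.00826). bta-miR-363, the mate on chromosome X, had a mean of 67.1 RPM in leucocytes and 19.4 RPM in plasma on FD, with a log2 fold change of 3.27 (SE 0.707, adjusted p = 0.00585). On HG its means were 62.0 and 90.7 RPM, the libraries overlapped, and the log2 fold change with TMM was 1.18 (SE 0.635, adjusted p = 0.166). Its change from FD to HG was 2.16 in plasma (interval −0.04 to 4.37, adjusted p = 0.503) and −0.09 in leucocytes (−0.43 to 0.24), and the difference between these had an adjusted p of 0.663 by edgeR. In undivided reads bta-miR-92a outnumbered bta-miR-17-5p by 28.0 to 244 times in plasma and by 19.2 to 35.8 times in leucocytes.

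In plasma no member passed the test between the diets. By edgeR with cow as a block, 0 of the 9 members tested were called between HG and FD, beside 0% of 536 names, and 0 had an unadjusted p under 0.05, beside 8.58% of names. DESeq2 called 12 names and 0 members. The median log2 fold change of the members was 0.16, beside 0.26 over all names. bta-miR-18b did not reach 10 estimated counts in total and was not tested.

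Plasma libraries were paired by the study's numbering of cows, which these data do not show by themselves. Within these pairs, RPM of 1 member (bta-miR-106a) was higher on HG in 4 of 4 cows, beside 11.4% of names, and 0 members were lower in all 4, beside 0.935% of names. bta-miR-106a went from 3.19, 1.77, 1.98 and 0.388 RPM on FD to 3.37, 6.15, 6.96 and 1.46 RPM on HG in cows 1 to 4. Its log2 fold change was 1.05 with a 95% interval of −1.24 to 3.35 and an adjusted p of 0.947. bta-miR-93 changed by 0.11 (interval −0.85 to 1.08), bta-miR-106b by 0.26 (−0.87 to 1.39) and bta-miR-17-5p by 0.08 (−1.20 to 1.36). Changes within these bounds were not detectable with 4 cows. bta-miR-20a had 0.43 (−1.08 to 1.94), bta-miR-19a 0.49 (−1.54 to 2.53) and bta-miR-18a −0.44 (−2.05 to 1.16).

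**Figure D4:**
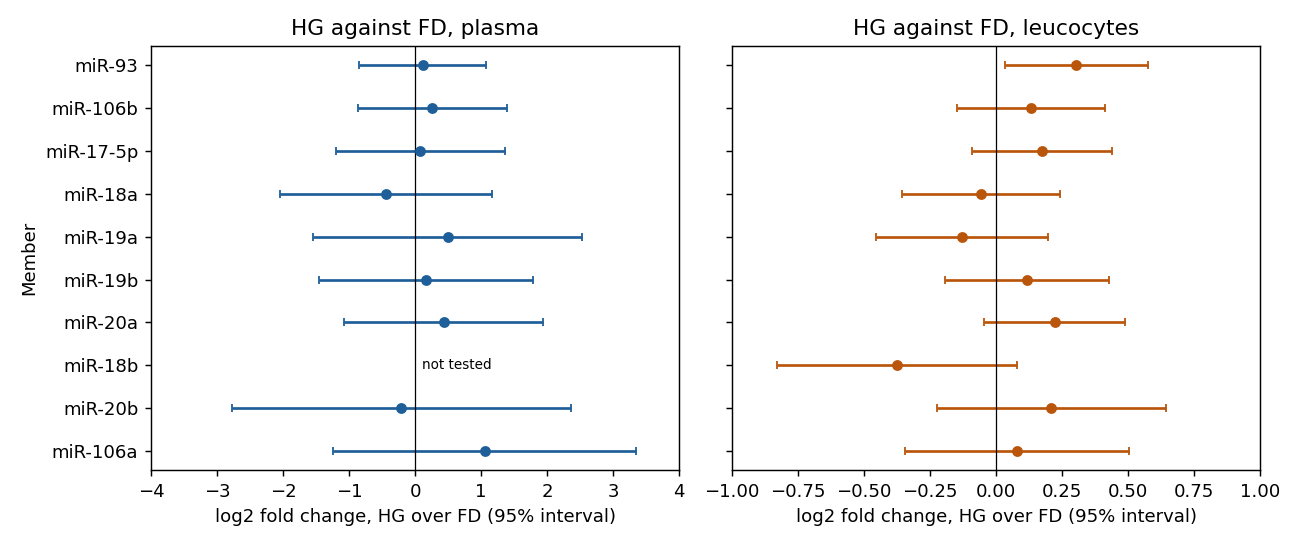
Log2 fold change of each member between HG and FD (horizontal axis, with 95% intervals from edgeR) in plasma (left, −4 to 4) and leucocytes (right, −1 to 1), members on the vertical axis. All plasma intervals cross 0, and bta-miR-18b was not tested there. In leucocytes the interval of bta-miR-93 alone lies to the right of 0.

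The plasma libraries fell into high and low levels that did not follow the diet. The family share was 0.740% in cow 1 on FD and 0.705 and 0.800% in cows 2 and 3 on HG, against 0.258 to 0.363% in the other 5 libraries. The share was thus lower on HG than on FD in cow 1 and higher in cows 2, 3 and 4, with a mean difference of 0.159 ± 0.398 percentage points (SD, n = 4 cows). This mean was 0.337 without cow 1, 0.0871 without cow 2 and 0.0336 without cow 3. The 3 high libraries were also the 3 shallowest, with 376589, 975513 and 1062846 reads. The 3 muscle markers summed to 811 to 1375 RPM in them and to 201 to 286 RPM in the others. In the high libraries most of this sum was bta-miR-1, at up to 763 RPM on FD and 1279 RPM on HG. bta-miR-206 did not follow the sum. Its highest plasma value, 119 RPM, was in cow 4 on FD, a low library, and it reached at most 29.1 RPM on HG. The 2 liver markers summed to less in the high libraries, with 7332, 19423 and 13355 RPM, than in the others, with 29785 to 67037 RPM. The erythrocyte markers summed to 83878, 87876 and 87250 RPM, but the highest sum, 93440 RPM, was in cow 2 on FD, where the family took 0.332%. The part of depth or of other tissues in the plasma levels was not tested. Among the 5 deeper libraries alone the share was 0.332, 0.267 and 0.258% on FD and 0.363 and 0.363% on HG.

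Members of one cluster also went separate ways in plasma. Counted as undivided reads, bta-miR-18a amounted to 3.11 times bta-miR-17-5p in plasma of cow 4 on FD, whereas this ratio was 0.285 to 0.663 in the other 7 plasma libraries and 0.380 to 0.509 in leucocytes. bta-miR-19a to bta-miR-17-5p ran from 0.0843 to 1.02 in plasma and from 0.231 to 0.387 in leucocytes. On the log2 scale the SD of the ratio to bta-miR-17-5p across libraries was 1.09 for bta-miR-18a, 1.13 for bta-miR-19a, 0.834 for bta-miR-19b and 0.644 for bta-miR-20a in plasma. Without plasma of cow 4 on FD, a setting chosen after seeing the data, it was 0.446, 0.814, 0.618 and 0.694. In leucocytes it was 0.177, 0.276, 0.230 and 0.0737. Plasma of cow 4 on FD was not shallow, with 3090572 reads, and its 1289 reads of bta-miR-18a came from 7 distinct sequences. The shared denominator was also low in this library, where bta-miR-17-5p had 66.4 RPM against a median of 268 RPM in plasma on FD. The ratios of bta-miR-19a (1.02) and bta-miR-19b (2.64) to it peaked there too, so the spreads of these ratios are not independent of each other. The ratio of bta-miR-93 to bta-miR-106b did not scatter in this way, with an SD of 0.240 in plasma and 0.248 in leucocytes.

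**Figure D5:**
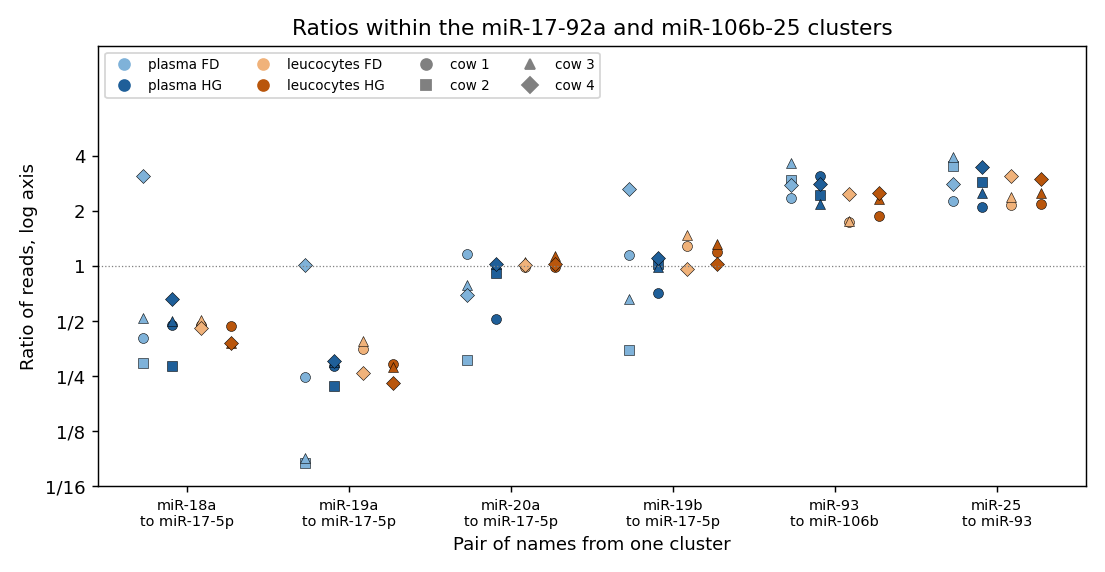
Ratio of undivided reads between names of one cluster (vertical axis, log scale) in every library, with the pair on the horizontal axis, colours for tissue and diet and shapes for the cow. Ratios to bta-miR-17-5p spread widely in plasma on FD, with cow 4 at 3.11 for bta-miR-18a, and lie close together in leucocytes. The ratio of bta-miR-93 to bta-miR-106b spreads about equally in both tissues.

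In leucocytes no member passed the test between the diets. By edgeR with cow as a block, 0 of 10 members were called between HG and FD, beside 1.80% of 779 names. At an unadjusted p under 0.05 there was 1 member, beside 14.9% of names, and DESeq2 called 36 names and 0 members. The median log2 fold change of the members was 0.12, beside −0.02 over all names. bta-miR-93 went from 5749, 5377 and 5832 RPM on FD to 6395, 7259 and 7349 RPM on HG in cows 1, 3 and 4, with no overlap between the diets. Its log2 fold change was 0.30 (SE 0.123, interval 0.03 to 0.57) with an unadjusted p of 0.0315 and an adjusted p of 0.269 in edgeR's test. bta-miR-25, from the same transcript, had 12380, 12859 and 18149 RPM on FD and 14062, 18118 and 21897 RPM on HG, a change of 0.31 (SE 0.120, adjusted p = 0.222).

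Higher RPM on HG in 3 of 3 cows was found for bta-miR-17-5p, bta-miR-20a, bta-miR-20b, bta-miR-93 and bta-miR-106b, which is 5 of 10 members beside 16.2% of names. All of them carry the miR-17 seed. The sixth with this seed, bta-miR-106a, was higher in 2 of 3 cows. The pattern was not confined to this seed, since the cluster mate bta-miR-25 was also higher in 3 of 3 cows, by 1.14 to 1.41 times. Of the other mates, bta-miR-92a was higher in 2 of 3 cows and bta-miR-363 in 1 of 3. The smallest rise in a cow was 1.02 times for bta-miR-17-5p and bta-miR-20a, 1.01 for bta-miR-20b, 1.03 for bta-miR-106b and 1.11 for bta-miR-93. Of these members, only bta-miR-93 had an edgeR interval that left out no change. bta-miR-20a had 660, 612 and 498 RPM on FD and 675, 738 and 645 RPM on HG, a log2 fold change of 0.22 (interval −0.05 to 0.49). bta-miR-18b was lower on HG in 3 of 3 cows, as were 16.5% of names, going from 6.65, 6.27 and 4.58 RPM to 5.33, 4.46 and 3.75 RPM. Its log2 fold change of −0.38 (interval −0.83 to 0.08) had an adjusted p of 0.439.

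Each of the 3 cows had a higher family share in leucocytes on HG, and the mean difference was 0.202 ± 0.112 percentage points (SD). The log2 ratio of the miR-17-92a to the miR-106b-25 members was lower on HG in 3 of 3 cows, with a mean difference of −0.097 ± 0.083 on the log2 scale (SD, n = 3 cows), and the difference in cow 4 was only −0.0054. With undivided reads 2 of 3 cows had the lower ratio on HG, and the difference in the remaining cow was 0.00615. The cell type markers of these leucocytes did not share one direction. Of the 3 erythrocyte markers, bta-miR-144 fell on HG (log2 fold change −0.86, adjusted p = 0.0352 by edgeR), while bta-miR-486 had 0.42 (adjusted p = 0.191) and bta-miR-451 had 0.32 (adjusted p = 0.639). The share of its reads that bta-miR-451 kept varied from 0.513 to 0.998 between leucocyte libraries. In undivided reads its leucocyte mean was 310269 RPM on FD and 309154 RPM on HG, so the rise was seen only in estimated counts. Of the 6 leucocyte markers, bta-miR-142-3p fell (−0.61, adjusted p = 0.0352) and the other 5 did not pass the test, with values from −0.46 for bta-miR-142-5p to 0.16 for bta-miR-223. The part of cell composition in the levels of the members was not tested.

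The change with diet was then compared between the tissues. No member's change was called different between leucocytes and plasma by edgeR's interaction test, with 0 of 10 called beside 0% of 794 names. At an unadjusted p under 0.05 there were 0 members, beside 56 of the 794 names. DESeq2 called 0 members, beside 14 of the 794 names. With so few names passing, 0 of 10 members does not set the family apart. The tissue and diet comparisons use the same libraries and are not independent of each other.

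A further column gave the number of distinct sequences behind each name. For bta-miR-93 this was 35, 46, 39 and 43 in plasma of cows 1 to 4 on FD and 87, 75, 78 and 84 on HG. For bta-miR-106b it was 28, 29, 28 and 32 on FD and 55, 43, 54 and 51 on HG. The HG libraries lay above the FD libraries also where they were shallower, as in cow 2 on HG, whose 2622 reads of bta-miR-106b held 43 distinct sequences against 32 in 2732 reads of cow 4 on FD. Every HG library lay above every FD library for 5 of the 9 members with reads in all plasma libraries, beside 36.7% of 362 names. The other 3 were bta-miR-17-5p, bta-miR-18a and bta-miR-19b. Among names with at least 100 reads in every plasma library it was 4 of 5 members, beside 44.3% of 176 names. In leucocytes every HG library lay above every FD library for 0 of 10 members, beside 0.609% of 657 names. The plasma libraries also listed more names on HG (504 to 538) than on FD (410 to 454), so the rise in plasma was not particular to the family.

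The names outside the family whose levels ran closest to its summed level differed between the tissues. In plasma they were bta-miR-495 (r = 0.979), bta-miR-454 (0.974) and bta-miR-378c (0.973), out of 247 candidates over 8 libraries. In leucocytes they were bta-miR-199a-3p (r = 0.997), bta-miR-185 (0.939) and bta-miR-199b (0.877), out of 178 candidates over 6 libraries. These values of Pearson's r on log2 RPM are a description, since the libraries of each tissue share cows and, in plasma, the contrast between the 3 shallow and 5 deeper libraries.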

How the data were processed

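The authors prepared small RNA libraries with the NEXTflex kit, sequenced 50-base single-end reads, demultiplexed them with bcl2fastq (2.20) and ran sRNAbench against UMD3.1 and miRBase, for bovine and human names. The deposited tables give read counts per name, counts of distinct sequences, estimated counts (reads divided among the names they fit) and RPM of the latter; the authors' normalized tables of the series were not used here. Reads carry no molecular identifiers in these tables, so the Wilson intervals cover counting error only. The intervals of fold changes come from the edgeR fits and also reflect variation between libraries.

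Estimated counts were rounded and tested with edgeR 4.0.16 (TMM, robust quasi-likelihood, cow as a block, names with at least 10 counts in total, Benjamini-Hochberg over all names, called at adjusted p under 0.05), under R 4.3.3. DESeq2 1.42.0, limma 3.58.1 and other scalings, filters and left-out cows were alternatives. In simulated counts, with names changed up or down at random, the fold changes were recovered at their size. More of them passed the test in leucocytes than in plasma. The simulation held no differences between cows and the same dispersion for all names. Its changes were balanced in direction, so it cannot show which scaling between the tissues is right. Tissue fits used cows 1, 3 and 4. Leucocyte libraries carry a cow letter in their labels. Plasma libraries were paired by the study's numbering of cows. Deviations of same-cow libraries from their group means correlated at 0.267 to 0.392 in leucocytes and at −0.219 to 0.147 in plasma, where libraries of different cows correlated at −0.265 to 0.348, so the plasma pairing does not show in the data. All 10 members, their cluster mates, other arms and human names were named, with the 3 names closest to the summed members per tissue. Seeds and clusters follow general knowledge, with clusters checked against the coordinates. Members and lists were chosen with earlier results of these data known. With cow as a block, p-values of the main fits rest on the variation left after differences in level between cows are removed, and cover these cows only.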

Additional observations from a re-analysis of the deposited data

Results flagged for a closer look

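In 28 groups of 4 plasma libraries (each tested member and measure, by diet), the library farthest from the others was compared with Dixon's limit, which chance passes in about 1 of 20 groups. In 2 of them a library stood apart, and both were plasma of cow 1 on FD. bta-miR-106b had 2900 RPM there, against 730 to 1075 RPM in cows 2 to 4. The family share was 0.740% there, against 0.258 to 0.332%. This was the shallowest library, with 376589 reads, and the part of depth in these values was not tested.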

How the results depend on the processing

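Across all settings every member tested (7 to 10 of them) was higher in leucocytes on both diets, and no setting called a member between the diets or for the interaction. The counts of calls moved. In leucocytes, where the main fit with cow as a block called 14 names between the diets, the fit without the replicate block called 0, DESeq2 36, RLE size factors 9, a minimum of 10 counts in every library 23, no robust fitting 7, names with identical counts taken once 5, and fits without one cow 0 to 111 (0 without cow 3, 9 without cow 1, 111 without cow 4). Plasma calls between the diets went from 0 to 12 with DESeq2, and the interaction from 0 to 14 with DESeq2 and 13 without cow 3 (0 to 13 over cows). For leucocytes against plasma on FD, 302 calls became 178 with library size only, 157 with the minimum of 10 in every library, 190 with identical names once and 117 to 177 without one cow. On HG, 279 became 172 with that minimum and 136 to 204 without one cow. Member calls were 4 (FD) and 3 (HG) with library size only, and 5 to 7 and 6 to 7 without one cow. The causes were not tested.

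In plasma, bta-miR-17-5p turned to −0.05 without the replicate block, to −0.14 without the 3 libraries under 1100000 reads and the block, and to −0.23 to 0.41 without one cow. bta-miR-20b turned to 0.19 with library size only, to 0.16 with undivided reads and to −0.74 to 0.26 without one cow. Without one cow, bta-miR-106b ran from −0.04 to 0.58 and bta-miR-19b from −0.01 to 0.31 in plasma. In leucocytes bta-miR-106a ran from −0.05 to 0.24, bta-miR-18a from −0.15 to 0.09, bta-miR-19a from −0.30 to 0.00 and bta-miR-19b from −0.06 to 0.26.

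Undivided reads moved the HG minus FD family share in leucocytes to 0.356 percentage points, the tissue difference to 1.48 (FD) and 1.69 (HG), and the tissue differences on HG of the log2 ratios of miR-17-92a to miR-106b-25 members to −0.27 and of miR-106a-363 to miR-17-92a members to 0.59. Without the bovine and human names of the erythrocyte markers in the total the shares moved to 0.343, 1.65 and 1.90. Depth limits bta-miR-18b, bta-miR-20b and bta-miR-106a in plasma.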
